A study of Mus musculus with 30 samples.

Results

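The expression of 10 genes that mark resident tissue macrophages was followed across adipose tissue macrophages (ATMs) and bone marrow (BM) of lean and obese mice. The 10 genes were chosen by name as *Adgre1*, *Mrc1*, *Lyve1*, *Timd4*, *Cd163*, *Folr2*, *Mertk*, *Maf*, *Cx3cr1* and *Vsig4*. All 10 were present among the 17059 genes counted in ATMs and the 13353 counted in BM, and all 10 passed the filter on low counts in both tissues. Resident macrophages settle in a tissue and carry out its housekeeping, clearing dying cells, debris, iron-bearing haemoglobin and other cargo through dedicated surface receptors. In adipose tissue the resident cells line vessels and are classically recognised by the mannose receptor CD206 and the hyaluronan receptor LYVE-1, whereas in obesity monocyte-derived macrophages that handle lipid accumulate beside them. In marrow, resident macrophages nurse erythroblasts and help to hold stem cells in their niche.

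The mice were transplant recipients. Marrow from Shp2E76K/+;LysM-Cre+ donors (CD45.2), in which Cre under the *LysM* promoter switches on an activated form of the phosphatase SHP2 in myeloid cells, was mixed with marrow of Boy/J mice (CD45.1) and given to lethally irradiated WT or Ob/Ob recipients, the latter lacking functional leptin. From 8 weeks after transplantation the Ob/Ob recipients received, for 30 days, vehicle, the GLP-1 receptor agonist beinaglutide (3 mg/kg, the GLP1 group), an antibody that blocks IL-17A (200 µg to each mouse, 3 times a week, the IL17 group) or both drugs (the Combo group), and the WT recipients formed the lean comparison (the WT group). All 5 groups carry the C57BL/6J label and an age of 12 to 14 weeks, and for the WT recipients the sources name mutant donor marrow in the BM comparison but do not settle the donor marrow of the ATM libraries. Each group gave 3 libraries in each tissue, labelled as separate mice. The ATMs were F4/80+ cells sorted from visceral fat, and the BM libraries came from whole marrow, in which resident macrophages are a small part. Because F4/80 is the product of *Adgre1*, the sort itself used that gene. In bulk libraries such as these, fewer cells of a type and less RNA per cell cannot be told apart.

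Depth was between 24876074 and 45300263 assigned counts per ATM library and between 31086184 and 39925495 per BM library. Levels are given as CPM, the counts scaled to a common library size by TMM, means carry an SD over 3 libraries, and log2 fold changes carry a standard error (SE). A gene was called changed when its adjusted p from edgeR's quasi-likelihood test was under 0.05 and its log2 fold change lay beyond 1 in either direction.

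Several facts about the ATM libraries stand beside every comparison with the vehicle group. *Csf1r*, the receptor for the macrophage growth factor CSF1, was at 38.4 to 54.4 CPM in the 3 vehicle libraries and at 531 to 1045.7 CPM in all others. The summed level of 9 neutrophil genes was 20955 to 22189 CPM in vehicle, 12464.1 to 12804.1 in Combo and 176 to 399 in the other groups. *Cdh5*, which encodes the junction protein of endothelium, was at 568 to 707 CPM in vehicle and at most 95.2 CPM elsewhere, whereas the 10 fibroblast genes summed to less in vehicle (5976.6 to 6408.9 CPM) than in any other group (at least 13252.1 CPM). The 7 adipocyte genes summed to 4003.9 to 4251.6 CPM in vehicle and to between 1116 and 1286.3 CPM in the other groups. The 14 genes that all macrophages share summed to 5550.2 to 5750.9 CPM in vehicle, 7937.9 to 8213.2 in WT, 17231.6 to 17349.6 in Combo, 19024 to 19938.8 in GLP1 and 24920.8 to 25166.7 in IL17. Pancreatic acinar genes summed to 1139.9 to 1149.2 CPM in Combo and to at most 27.6 CPM in any other group, and epididymal genes summed to 10455 to 10696.9 CPM in WT and to at most 208 CPM elsewhere. In both tissues the sex-linked genes set the vehicle and Combo groups apart from the other 3, with *Xist* in ATMs at 30.1 to 46.2 CPM in those groups and at most 1.22 CPM elsewhere, so sex and group cannot be told apart except between vehicle and Combo and among WT, GLP1 and IL17. This split goes against the labels, by which the groups were matched for sex. In BM, WT replicate 1 stood apart from the other WT libraries, and the numbers of members called against WT were the same without it. The part of these differences in the results was not tested.

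Since several of the genes moved together, the 250 bases before their starts were read. RefSeq (GRCm38.p6) gave such a stretch for 7 of the 10 genes, with *Folr2* entered at 2 starts. The stretches of *Mrc1* (chr2:14229164-14229413, plus strand), *Cd163* (chr6:124304401-124304650, plus strand), *Vsig4* (chrX:96293439-96293688, minus strand) and *Timd4* (chr11:46810549-46810798, plus strand) are shown 5′ to 3′. In fat *Mrc1*, *Cd163* and *Vsig4* were called lower in vehicle than in WT and higher in each treated group than in vehicle. *Folr2*, whose stretches are not shown, had the same calls. *Timd4* went opposite ways in fat and marrow. Capitals mark the letters GAGGAA (a core bound by the macrophage factor PU.1) or TGCTGA (part of the site bound by MAF factors) or the same letters read on the other strand.
Mrc1: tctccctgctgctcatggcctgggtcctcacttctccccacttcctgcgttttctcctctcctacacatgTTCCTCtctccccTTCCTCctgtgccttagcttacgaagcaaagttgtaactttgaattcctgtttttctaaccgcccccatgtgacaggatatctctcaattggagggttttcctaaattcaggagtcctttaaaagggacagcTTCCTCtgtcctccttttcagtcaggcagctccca
Cd163: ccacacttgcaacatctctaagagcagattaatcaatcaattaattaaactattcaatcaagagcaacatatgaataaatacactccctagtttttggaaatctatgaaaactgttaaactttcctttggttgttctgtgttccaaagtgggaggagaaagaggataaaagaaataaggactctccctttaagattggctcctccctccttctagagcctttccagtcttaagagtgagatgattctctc
Vsig4: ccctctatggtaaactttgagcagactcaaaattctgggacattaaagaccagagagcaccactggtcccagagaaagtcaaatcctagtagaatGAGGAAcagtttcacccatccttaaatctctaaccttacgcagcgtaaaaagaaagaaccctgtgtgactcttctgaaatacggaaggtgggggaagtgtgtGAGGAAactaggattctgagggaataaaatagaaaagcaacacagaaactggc
Timd4: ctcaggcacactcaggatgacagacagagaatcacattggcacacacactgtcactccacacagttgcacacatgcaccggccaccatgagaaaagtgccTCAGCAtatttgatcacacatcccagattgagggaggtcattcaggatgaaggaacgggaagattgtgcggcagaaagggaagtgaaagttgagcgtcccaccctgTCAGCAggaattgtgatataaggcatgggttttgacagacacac
GAGGAA was found in the stretches of *Mrc1* and *Vsig4* only, 2 of 8, and TGCTGA in *Timd4* and both *Folr2* starts, 3 of 8. Of 32851 mouse stretches of the same length, 23.3% held the former and 16.1% the latter, so that neither motif was a feature of all members, and no letters of either kind stood in the *Cd163* stretch.

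To ask how resident macrophage genes in fat differed between obese and lean recipients, ATMs of vehicle-treated Ob/Ob recipients were compared with those of WT recipients. In vehicle 8 of the 10 genes fell, *Adgre1*, *Mrc1*, *Lyve1*, *Timd4*, *Cd163*, *Folr2*, *Maf* and *Vsig4*, and none rose. Among all 17059 genes, 35.4% were called in this comparison and 22.9% were called lower. The libraries of the groups did not overlap for 9 of the 10, as for 62.9% of all genes. The median log2 fold change of the 10 genes was -2.37 against -0.21 over all genes. *Mertk* and *Cx3cr1* were not called.

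The scavenger receptor genes *Mrc1* and *Cd163* had the largest fitted falls, though the fold of *Vsig4* could not be fixed. *Mrc1* (chromosome 2, 14229392 to 14332057), which encodes the mannose receptor CD206, stood at 151, 144 and 164 CPM in the WT libraries and at 4.23, 5.35 and 14.2 in the vehicle libraries. The groups lay far apart, with a change of -4.28 ± 0.286 on the log2 scale (SE; adjusted p = 3.41e-09, edgeR's quasi-likelihood test). Vehicle replicate 3 was the highest of its group, and without it the change was -5.00. *Cd163* (chromosome 6, 124304656 to 124330527), the receptor for haemoglobin bound to haptoglobin, was at 32.6, 25.2 and 27.3 CPM in WT and at 0.845, 1.99 and 1.58 CPM in vehicle, a change of -4.27 ± 0.297 (adjusted p = 5.62e-09, edgeR's quasi-likelihood test). *Vsig4* (X chromosome, 96247203 to 96293438) encodes the complement receptor CRIg, by which macrophages capture C3b-coated particles. It was at 7.9, 7.39 and 7.78 CPM in WT, and its vehicle libraries held 69, 2 and 0 counts, or 2.78, 0.0885 and 0 CPM. The fitted change of -2.96 ± 0.697 (adjusted p = 0.00201, edgeR's quasi-likelihood test) rests on the vehicle library with 69 counts, since the other 2 lie too near 0 to fix a fold, and it was not called when the fit held WT and vehicle alone (adjusted p = 0.085). Without the library of 69 counts the fitted change was -7.32.

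*Folr2*, folate receptor beta, and *Lyve1*, the hyaluronan receptor of perivascular macrophages and of lymphatic vessels, also separated the groups without overlap. *Folr2* (chromosome 7, 101839988 to 101857194, with 63.1% of its exon length shared with the annotated gene *Gm10602*) was at 238, 238 and 257 CPM in WT and at 41.8, 40.5 and 31.5 CPM in vehicle (log2 fold change -2.69 ± 0.0836; adjusted p = 2.49e-13, edgeR's quasi-likelihood test). *Lyve1* (chromosome 7, 110850607 to 110863239) was at 111, 109 and 120 CPM in WT and at 17.8, 24.1 and 21.2 CPM in vehicle (-2.43 ± 0.198; adjusted p = 3.97e-08, edgeR's quasi-likelihood test). The summed level of 5 lymphatic genes was 114 to 130 CPM in vehicle and 67.8 to 83.8 CPM in WT, and its part in the *Lyve1* value was not tested.

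The receptors for dying cells divided. *Timd4* (chromosome 11, 46810800 to 46844332), which encodes the phosphatidylserine receptor TIM-4 of long-lived resident macrophages, was low throughout, at 8.61, 5.33 and 6.99 CPM in WT and 2.46, 3.27 and 0.271 CPM in vehicle. Its fall of -1.80 ± 0.686 (adjusted p = 0.0357, edgeR's quasi-likelihood test) was the least firm of the 8, and the call was lost without WT replicate 1 (adjusted p = 0.0946), WT replicate 3 (0.0664) or vehicle replicate 3 (0.0645) and when only WT and vehicle were fitted (0.0794). *Mertk* (chromosome 2, 128698956 to 128802894), a receptor tyrosine kinase that binds apoptotic cells through the bridging ligands GAS6 and protein S, went the other way within the fold limit: 29.5, 30.1 and 26.6 CPM in WT against 41.2, 40 and 46.3 CPM in vehicle (0.57 ± 0.149). Its ligand gene *Gas6* was at 752 CPM in WT and 88.5 CPM in vehicle (-3.09 ± 0.103; adjusted p = 6.26e-13, edgeR's quasi-likelihood test).

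*Maf*, *Adgre1* and *Cx3cr1* encode a transcription factor, an adhesion receptor and a chemokine receptor. *Maf* (chromosome 8, 115682942 to 115707794), the factor c-MAF of resident and tissue-repair programmes, fell from 19.2, 17.8 and 21.3 CPM to 6.28, 3.85 and 4.24 CPM (-2.02 ± 0.188; adjusted p = 1.77e-07, edgeR's quasi-likelihood test). *Adgre1* (chromosome 17, 57358691 to 57483527) was at 192, 203 and 230 CPM in WT and at 30.2, 52.4 and 44.3 CPM in vehicle (-2.30 ± 0.133; adjusted p = 5.45e-10, edgeR's quasi-likelihood test), so that the gene whose product was sorted for was itself lower in the sorted cells of the vehicle group. *Cx3cr1* (chromosome 9, 119901616 to 120069879), the fractalkine receptor, was near the bottom of the range, with WT libraries at 2.4, 5.04 and 1.12 CPM and vehicle libraries at 2.58, 3.98 and 3.56 CPM. These overlapped (0.24 ± 0.525), and the SE leaves room for a change of either sign. Its ligand gene *Cx3cl1* rose from 34.2 to 197 CPM (2.53 ± 0.132; adjusted p = 1.63e-10, edgeR's quasi-likelihood test).

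**Figure D1:**
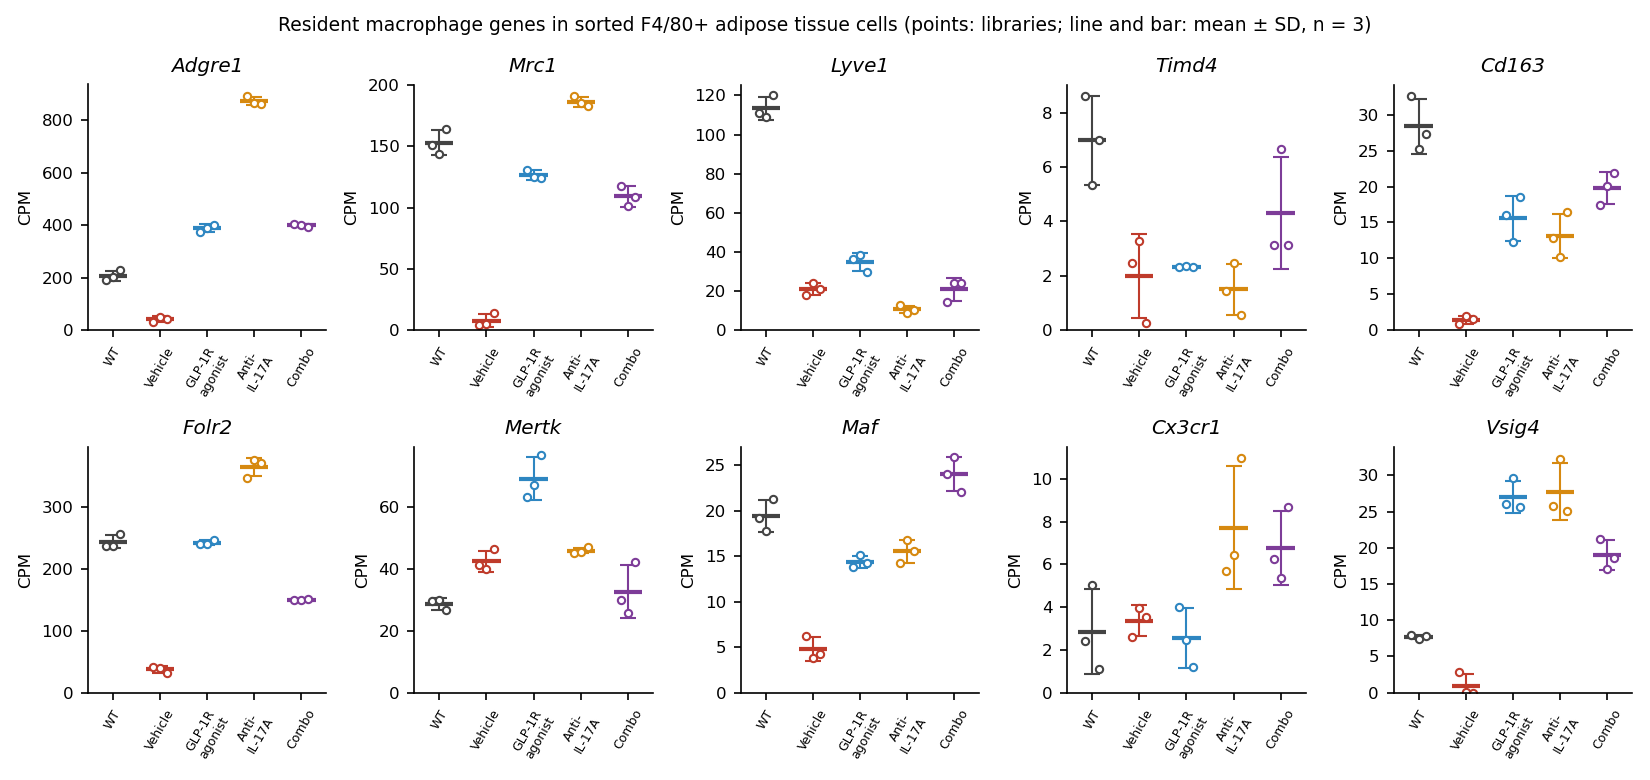
CPM of each of the 10 genes in the 15 ATM libraries, by group, on axes that start at 0, with points for libraries and lines and bars for the mean ± SD. The vehicle libraries lie below all others for *Mrc1*, *Cd163*, *Folr2* and *Maf*, and *Lyve1* is at 109 to 120 CPM in WT and at most 38.3 CPM in any other library.

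The next question was how these genes differed from vehicle in obese recipients given each drug. In GLP1, in IL17 and in Combo alike, 6 of the 10 rose over vehicle, in each case *Adgre1*, *Mrc1*, *Cd163*, *Folr2*, *Maf* and *Vsig4*, and none fell. Of all genes, 31.8% were called in GLP1 against vehicle (20.8% higher), 35.5% in IL17 (22.4% higher) and 26.4% in Combo (14.1% higher). The median log2 fold change of the 10 genes was 2.12, 2.43 and 2.15, against 0.19, 0.17 and 0.00 over all genes. The 3 comparisons share the vehicle libraries.

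*Mrc1* returned close to the WT level, at 131, 125 and 124 CPM in GLP1, 191, 185 and 183 in IL17 and 118, 101 and 109 in Combo. The rises over vehicle were 4.01 ± 0.283, 4.57 ± 0.288 and 3.80 ± 0.282, or 4.73, 5.27 and 4.51 without vehicle replicate 3, and no treated group was called different from WT. *Cd163* recovered in part, to 15.6 ± 3.1 CPM in GLP1, 13.1 ± 3.15 in IL17 and 19.8 ± 2.31 in Combo (SD, n = 3), against 28.3 ± 3.82 in WT. Among the treated groups IL17 was called below WT for *Cd163* (-1.11 ± 0.248; adjusted p = 0.00226, edgeR's quasi-likelihood test), and all 9 treated libraries lay below the lowest WT library (25.2 CPM). *Vsig4* stood above the WT level, at 26, 29.6 and 25.6 CPM in GLP1, 25.8, 32.3 and 25.1 in IL17 and 21.2, 17.1 and 18.6 in Combo. The lowest of these 9 libraries was at 17.1 CPM and the highest WT library at 7.9 CPM. Against WT the log2 fold changes of *Vsig4* were 1.82 ± 0.596 in GLP1 (adjusted p = 0.0269), 1.85 ± 0.595 in IL17 (0.023) and 1.30 ± 0.589 in Combo (0.0917, not called), all by edgeR's quasi-likelihood test. The call in GLP1 was lost without any 1 of its 6 libraries (adjusted p up to 0.0793) and that in IL17 without any WT library or IL17 replicate 2 (up to 0.0699), with the fold nearly unchanged. All groups share 1 fit, so the wide spread of *Vsig4* among the vehicle libraries enters these SEs.

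*Folr2* matched WT in GLP1 (240, 240 and 247 CPM, a difference of -0.01 ± 0.0769 from WT) and stood higher in IL17 (348, 376 and 372 CPM) and lower in Combo (150, 150 and 152 CPM). *Maf* was at 13.8, 15.1 and 14.3 CPM in GLP1, 14.3, 16.8 and 15.6 in IL17 and 24.1, 25.9 and 22.1 in Combo. It was thus below every WT library in both single-drug groups and above every WT library in Combo, by less than the fold limit in each (-0.43 ± 0.177, -0.32 ± 0.177 and 0.31 ± 0.176 against WT). *Adgre1* rose over vehicle to levels above every WT library in all 3 groups, at 375, 392 and 403 CPM in GLP1, 405, 401 and 395 in Combo and 894, 866 and 864 in IL17. The IL17 rise over WT was called (2.07 ± 0.127; adjusted p = 2.8e-09, edgeR's quasi-likelihood test), and *Csf1r* was likewise highest in IL17, at 966 to 1045.7 CPM.

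*Lyve1* and *Timd4* did not follow. *Lyve1* was at 36.3, 38.3 and 29.7 CPM in GLP1, at 12.7, 8.99 and 10.6 in IL17 and at 14.3, 24.4 and 24.3 in Combo, where WT libraries were at 109 CPM or more. Against vehicle the changes were 0.72 ± 0.192, -0.96 ± 0.195 and -0.00 ± 0.192, none past the fold limit. Against WT, *Lyve1* fell by 1.71 in GLP1 (adjusted p = 3.77e-06), 3.40 in IL17 (2.32e-09) and 2.44 in Combo (6.72e-08) on the log2 scale (edgeR's quasi-likelihood test). Of the 10 genes it was the only one called lower than WT in all 4 obese groups. *Timd4* was at 2.34 ± 0.0268 CPM in GLP1, 1.5 ± 0.946 in IL17 and 4.31 ± 2.04 in Combo (SD, n = 3), and none of these was called against vehicle. Against WT it was called lower in IL17 (-2.21 ± 0.691; adjusted p = 0.0197, edgeR's quasi-likelihood test), a call lost without WT replicate 1 or IL17 replicates 1 or 3, and not in GLP1 (-1.57 ± 0.678; 0.0857) or Combo (-0.69 ± 0.662; 0.437).

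*Mertk* and *Cx3cr1* had patterns of their own. *Mertk* was highest in GLP1, at 63.4, 67.3 and 76.9 CPM, against 45.3, 45.6 and 47 in IL17 and 29.8, 25.8 and 42.3 in Combo. The GLP1 libraries were above WT by 1.27 ± 0.15 (adjusted p = 6.43e-06, edgeR's quasi-likelihood test), and Combo was not called against WT. *Cx3cr1* was at 3.99, 2.45 and 1.21 CPM in GLP1, 5.68, 6.46 and 11 in IL17 and 6.25, 5.36 and 8.69 in Combo. The IL17 and Combo libraries were above every WT and vehicle library, yet of the comparisons with WT and vehicle only IL17 against WT passed the test (1.43 ± 0.527; adjusted p = 0.0436, edgeR's quasi-likelihood test). That call was lost without WT replicates 1 or 3 or IL17 replicates 2 or 3 and under the replicate block (0.0575), and the change was 2.13 without WT replicate 2.

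Against WT, 3 of the 10 genes were called in GLP1 (2 higher and 1 lower, where 15.1% of all genes were called, 7.7% higher and 7.42% lower), 6 in IL17 (3 in each direction, where 18.7% were called, 9.65% higher and 9.04% lower) and 1 in Combo (lower, where 21.6% were called and 14.5% lower). The fold changes of GLP1 and IL17 against WT do not use the vehicle levels, and these 3 groups lay together in their sex-linked genes. Their SEs and adjusted p do depend on the vehicle libraries, which share the fit and its estimate of spread. Called higher in IL17 were *Adgre1*, *Cx3cr1* and *Vsig4*, and lower *Lyve1*, *Timd4* and *Cd163*. Only 2 of these calls remained without WT replicate 1, those of *Adgre1* and *Lyve1*, and *Cd163* then stood at -1.0.

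Scaling the ATM libraries to the pan-macrophage genes in place of all genes, a choice made after seeing the data, set each level against those 14 genes. It moved the median of all genes to -0.95 in GLP1, -1.47 in IL17 and -1.06 in Combo against vehicle. The same number, 8, fell in vehicle against WT, where 21.8% of all genes did. There the scaling moved the median of all genes little, from -0.21 to -0.15. On the main scale some of the 14 genes rose in vehicle and others, *Csf1r* among them, fell. Neutrophil genes summed to at least 20955 CPM in vehicle, and the 14 genes may not measure macrophages alone. Whether the 8 falls hold at equal macrophage content was not tested. Against vehicle 5 rose in each treated group, where 10.4% of all genes rose in GLP1, 9.47% in IL17 and 4.38% in Combo. On this scale 1 of the 10 fell in GLP1, 3 in IL17 and 2 in Combo, where 42.3%, 58.2% and 45.8% of all genes fell. *Maf* was then not called in GLP1 (0.43) or IL17 (0.05), *Folr2* was not called in Combo (0.81), *Mertk* turned to -1.54 in IL17 and stood at -1.56 in Combo, and *Lyve1* fell in IL17 (-2.61) and Combo (-1.18). In Combo against WT 5 genes were called lower, close to the 54.2% of all genes that were, with *Mrc1* at -1.60, *Timd4* at -1.80, *Cd163* at -1.63 and *Folr2* at -1.82 beside *Lyve1*. Against WT on this scale 7 genes were lower and none higher in GLP1, where 43.8% of all genes were lower, and 6 were lower and none higher in IL17, where 68% were. In IL17 *Mrc1* (-1.30), *Folr2* (-1.0) and *Cx3cr1* (-0.16) had the opposite sign to the main scale and *Adgre1* (0.49) and *Vsig4* (0.27) were not called. The median of all genes then stood at -1.05 in GLP1 and -1.58 in IL17 against WT.

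To see whether both drugs together differed from either alone, Combo was compared with each single-drug group in ATMs. Against GLP1, 2 of the 10 genes were called, where 18.7% of all genes were. *Mertk* was lower in Combo (-1.08 ± 0.148; adjusted p = 2.7e-05, edgeR's quasi-likelihood test) and *Cx3cr1* higher (1.41 ± 0.528; 0.0456). The *Mertk* difference was -0.94 without Combo replicate 2, and the *Cx3cr1* call was lost without any 1 of 5 of the 6 libraries and under the replicate block (0.0657). Against IL17, 2 genes were called where 14.2% of all genes were (10.5% lower), *Adgre1* (-1.13 ± 0.124; 4.08e-06) and *Folr2* (-1.28 ± 0.078; 5.16e-09), both lower in Combo. Under the pan-macrophage scaling those became -0.66 and -0.81, no longer past the fold limit, and 4 others, *Lyve1*, *Timd4*, *Cd163* and *Maf*, were higher in Combo than in IL17, as were 10.6% of all genes. For *Mrc1* the Combo group differed from GLP1 by -0.21 ± 0.237 and for *Cd163* by 0.34 ± 0.246, and the SEs leave room for differences of either sign.

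**Figure D2:**
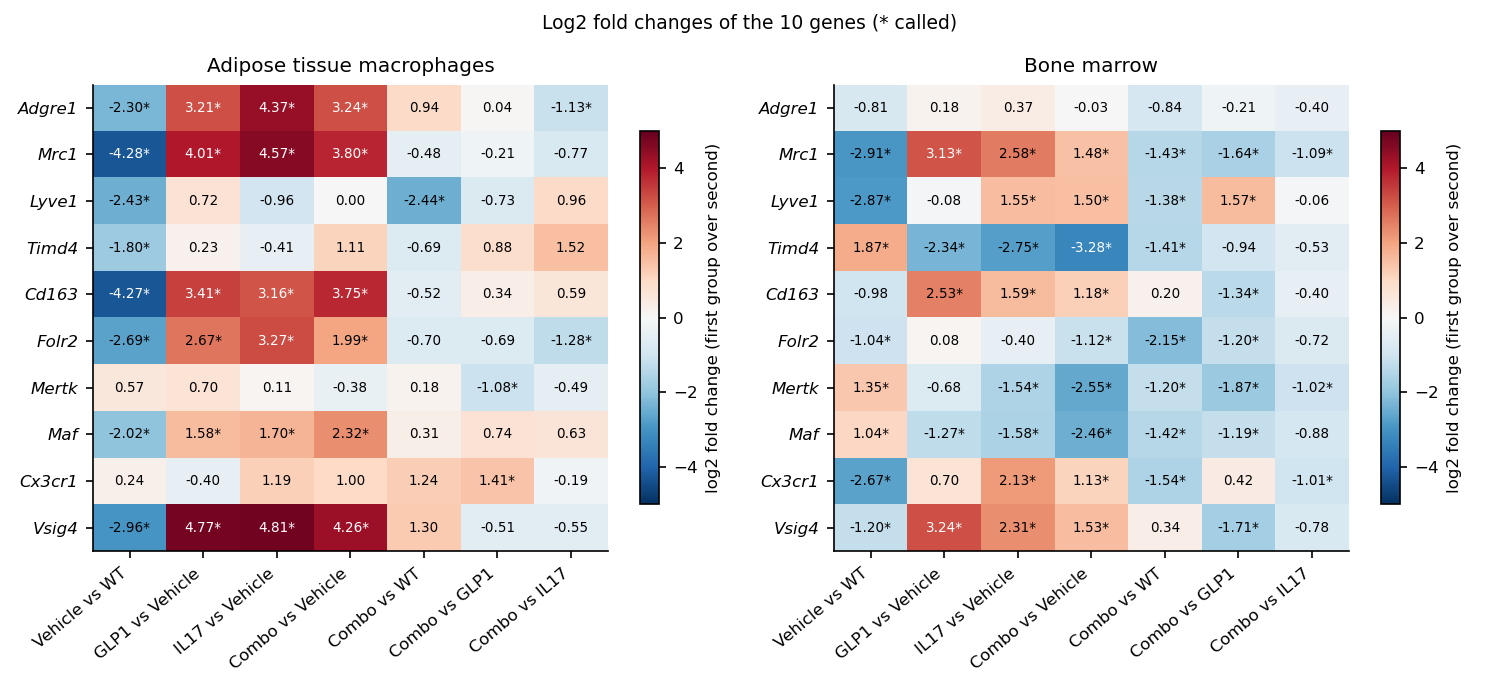
Log2 fold change of each of the 10 genes (rows) in 7 comparisons (columns), for ATMs and for BM, as colour and as a printed value, with an asterisk where the gene was called. In ATMs 6 genes are red in all 3 treated groups against vehicle, and *Lyve1* is at -2.43 in vehicle and at -2.44 in Combo against WT.

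Other genes of the same cells and pathways were read from fixed lists, some of which share members. Of all genes in ATMs, 12.5% rose and 22.9% fell in vehicle against WT, and 7.08% rose and 14.5% fell in Combo against WT. Against vehicle, 20.8% rose and 10.9% fell in GLP1, 22.4% and 13.1% in IL17 and 14.1% and 12.2% in Combo. Of 16 other genes of resident macrophages in ATMs, 10 fell and 1 rose in vehicle against WT (median -2.27). The most abundant were *Gas6* (-3.09), *F13a1*, which encodes the A chain of coagulation factor XIII (-6.48), *Id3*, a regulator of transcription (-0.20, not called), and the chemokine gene *Ccl8* (1.06), the only one that rose. Against vehicle, 12 of these 16 rose in each treated group, with 1 fall in GLP1 and 2 falls in IL17 and in Combo. In Combo against WT, 2 rose and 6 fell, with *Gas6* at -1.67 and *F13a1* at -1.34 among the falls. Of the 14 pan-macrophage genes, 4 rose and 4 fell in vehicle against WT (median -0.40), with *Csf1r* at -3.52, the lysozyme gene *Lyz2* at -1.21 and *Apoe* at -1.52. In Combo against WT 8 of them rose and none fell.

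Of 14 genes for ligands, partners and regulators of the 10, 5 rose and 3 fell in vehicle against WT, where 12.5% and 22.9% of all genes did. The growth factor gene *Csf1* (1.34), *Cx3cl1* (2.53), the haptoglobin gene *Hp* (2.57), the haem oxygenase gene *Hmox1* (1.11) and *Spi1*, which encodes PU.1 (2.51), were the 5 that rose. *Csf1* (-2.00) and *Cx3cl1* (-2.98) fell in Combo against vehicle, where 5 of the 14 rose and 3 fell. Of 11 genes of lipid-associated macrophages, 7 rose and 1 fell in vehicle against WT. In Combo against WT 10 rose (median 2.27), where 7.08% of all genes did. Among them were *Gpnmb* (3.57), the galectin-3 gene *Lgals3* (2.57) and the lipid uptake receptor gene *Cd36* (1.35). The 16 genes for clearance of dying cells gave 3 rises and 5 falls in vehicle against WT, where 12.5% of all genes rose and 22.9% fell. Among them *Tgm2* was at 2.09 and the receptor gene *Lrp1* at -2.22.

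**Figure D3:**
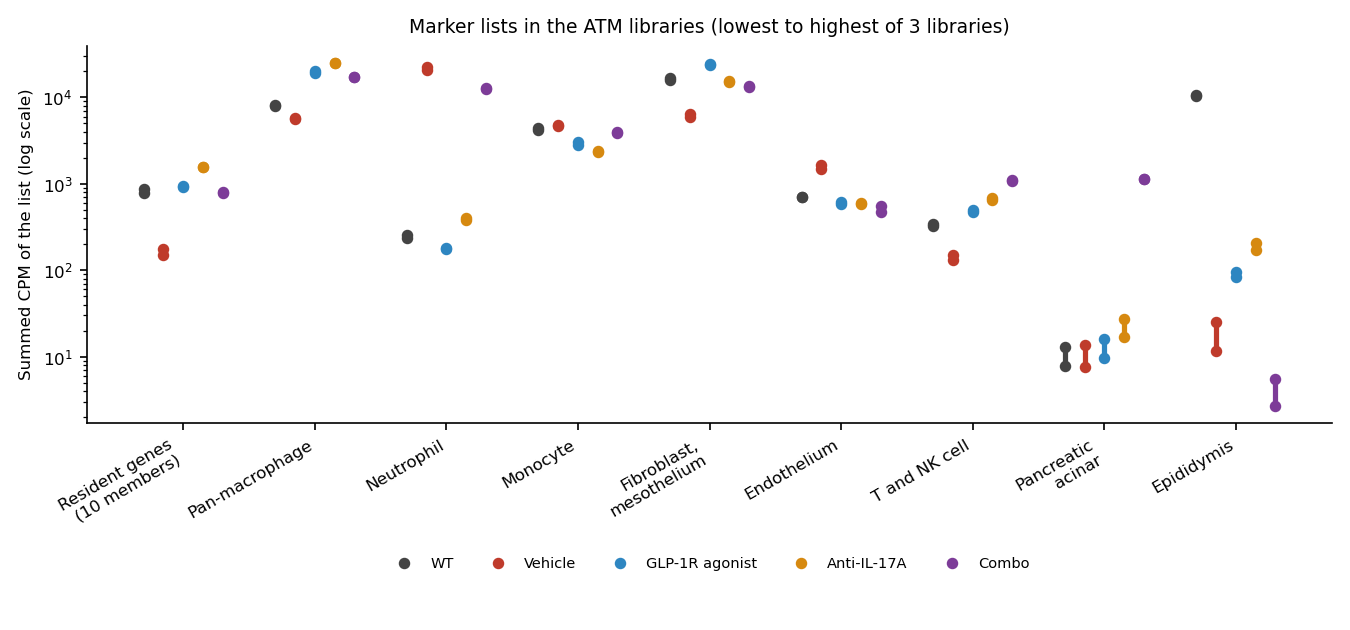
Summed CPM of the 10 genes and of 8 marker lists in the ATM libraries, by group, on a log axis, with points for the lowest and highest library. The 10 genes sum to 150 to 175 CPM in the vehicle libraries and to 778 CPM or more in the treated ones, while the neutrophil list is at 12464.1 CPM or more in vehicle and Combo and at most 399 CPM elsewhere.

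Per kilobase of exon, the 10 genes in WT ATMs ran from *Folr2* (158 ± 7.17 CPM per kb, SD, n = 3) through *Adgre1* (64.3 ± 5.92), *Lyve1* (38.9 ± 2.07) and *Mrc1* (24 ± 1.56) to *Mertk* (6.62 ± 0.428), *Cd163* (5.19 ± 0.7), *Vsig4* (5.18 ± 0.18), *Timd4* (3.21 ± 0.757), *Maf* (2.36 ± 0.213) and *Cx3cr1* (0.633 ± 0.444). *Cd163* and *Vsig4* did not differ beyond their spread. In vehicle ATMs *Folr2* still led at 24.5 ± 3.64 CPM per kb, but *Mertk* (9.8 ± 0.767) now stood above *Lyve1* (7.2 ± 1.07) and *Mrc1* (1.24 ± 0.854). In IL17 ATMs *Adgre1* led at 270 ± 5.17 CPM per kb, above *Folr2* at 236 ± 9.71.

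Across the 15 ATM libraries, which share groups, *Mrc1* correlated with *Folr2* (r = 0.94), *Cd163* (0.92) and *Adgre1* (0.90) on the log2 scale, whereas *Adgre1* and *Lyve1* gave r = -0.23. Of 13913 genes compared, the pattern most like that of *Adgre1* was *Pla2g15* (r = 0.995), those of *Mrc1* were *Cryl1* (0.988), *Pld4* (0.986) and *Hsd17b4* (0.981), that of *Folr2* was *Asph* (0.989), that of *Vsig4* was *Lpar5* (0.987) and that of *Lyve1* was *Figf* (0.954). These correlations follow the group means and are given as a description.

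In BM the same 10 genes were compared over the same groups. In vehicle against WT, 5 fell and 3 rose, where 19.5% of 13353 genes were called, 10% lower and 9.44% higher. The libraries did not overlap for any of the 10, as for 75.8% of all genes. *Mrc1*, *Lyve1*, *Folr2*, *Cx3cr1* and *Vsig4* fell, and *Timd4*, *Mertk* and *Maf* rose. *Adgre1* changed by -0.81 and *Cd163* by -0.98, short of the fold limit. Marker genes of other marrow cells moved with the groups. The 10 monocyte genes summed to 9194.3 to 9228.5 CPM in WT, 23952.9 to 24074.3 in vehicle, 13214 to 13257.2 in Combo and 9216.8 to 9574.5 in GLP1 and IL17. The 8 B cell genes summed to 1227.3 to 1248.4 CPM in WT, 361 to 404 in vehicle and IL17 and 117 to 127 in GLP1 and Combo. Their part in the BM results was not tested.

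*Cx3cr1*, which in marrow marks patrolling monocytes as well as macrophages, was at 38.4, 36.1 and 37.8 CPM in WT and 6.06, 5.77 and 5.82 in vehicle (-2.67 ± 0.0776; adjusted p = 4.02e-29, edgeR's quasi-likelihood test). *Mrc1* was at 54.6, 48.7 and 47.2 CPM in WT and 6.81, 6.07 and 7.2 in vehicle (-2.91 ± 0.0708). *Lyve1* was scarce, at 4.08, 4.24 and 3.43 CPM in WT and 0.586, 0.463 and 0.551 in vehicle (-2.87 ± 0.244; adjusted p = 1e-13, edgeR's quasi-likelihood test). All 3 genes kept some signal in every vehicle library. *Mertk* moved upward, from 6.86, 5.92 and 6.25 CPM to 15.8, 17.9 and 14.8 (1.35 ± 0.108; adjusted p = 2.76e-14, edgeR's quasi-likelihood test), as did *Maf*, from 9.94, 9.54 and 9.28 CPM to 19.6, 22.5 and 16.9 (1.04 ± 0.101), and *Timd4*, from 0.423, 0.513 and 0.773 CPM to 2.05, 2.1 and 2.03 (1.87 ± 0.348; 8.64e-06). The calls of *Maf* and *Folr2* lay close to the fold limit, since *Maf* (0.93) and *Folr2* (-0.98) were inside it without vehicle replicate 2.

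**Figure D4:**
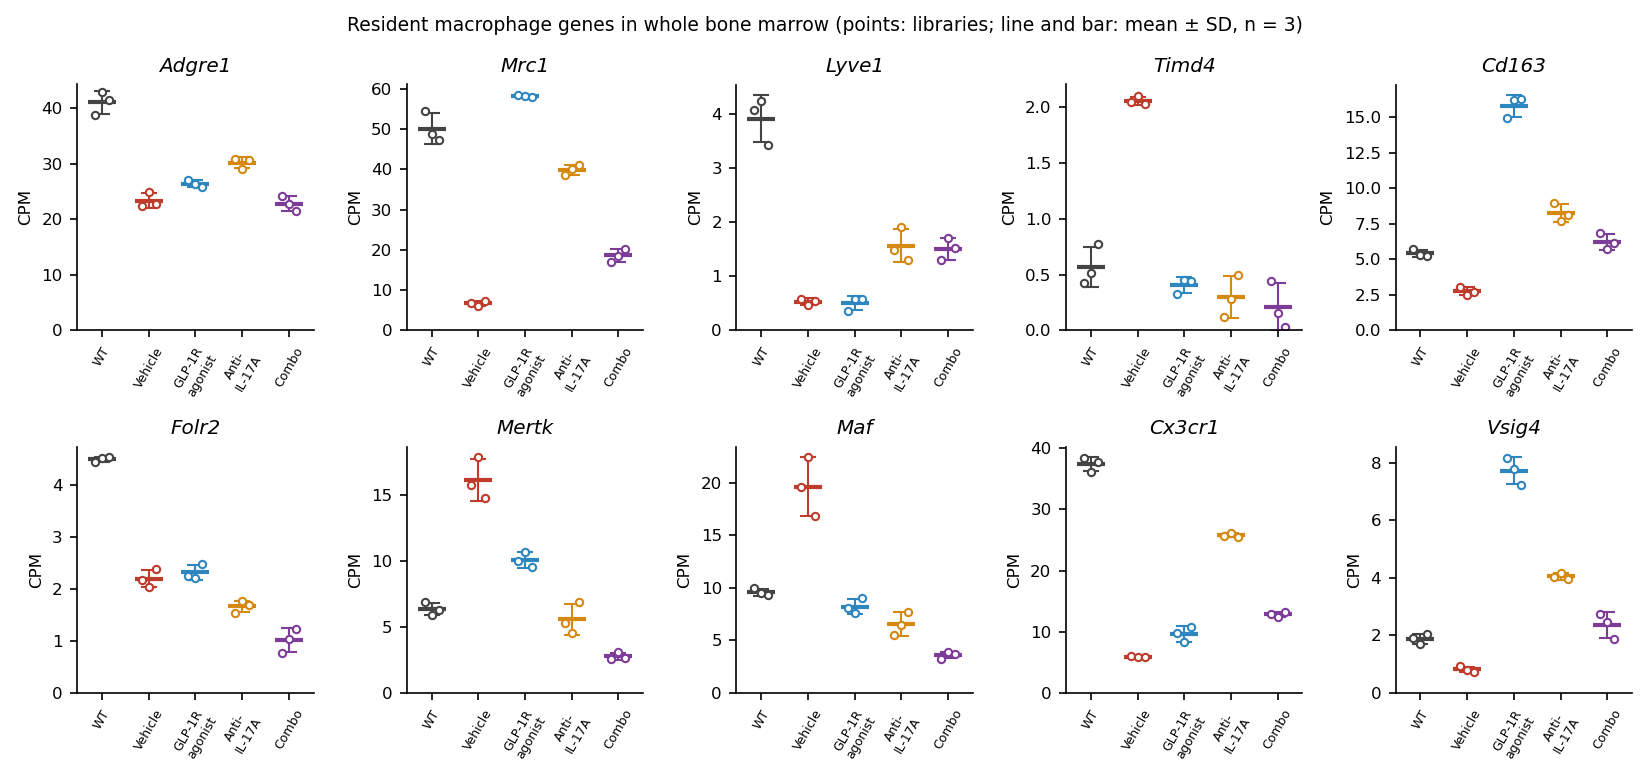
CPM of each of the 10 genes in the 15 BM libraries, by group, on axes that start at 0, with points for libraries and lines and bars for the mean ± SD. *Timd4*, *Mertk* and *Maf* are highest in vehicle, and *Mrc1* and *Cx3cr1* are lowest there.

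In treated marrow most of these shifts were smaller or ran the other way. Against vehicle, 5 of the 10 genes were called in GLP1 (3 higher and 2 lower), 8 in IL17 (5 higher and 3 lower) and 9 in Combo (5 higher and 4 lower). Of all genes 16.7% were called in GLP1 (7.6% higher and 9.08% lower), 16.1% in IL17 (7.65% higher and 8.46% lower) and 17.7% in Combo (6.58% higher and 11.1% lower). *Mrc1* rose to 58.5, 58.2 and 58.1 CPM in GLP1 and 38.6, 40 and 41 in IL17 but to 17.1, 18.6 and 20.3 in Combo. *Vsig4* and *Cd163* rose past WT in GLP1, *Vsig4* to 8.16, 7.8 and 7.25 CPM where WT was at 1.89, 1.68 and 2.04, and *Cd163* to 14.9, 16.2 and 16.3 CPM where WT was at 5.72, 5.27 and 5.23. Both were called higher than WT (2.05 ± 0.144 and 1.54 ± 0.0959; adjusted p = 4.14e-16 and 8.43e-18, edgeR's quasi-likelihood test). In IL17 *Vsig4* was also called higher than WT, at a mean of 4.05 CPM (1.12 ± 0.154). *Cd163* stood above WT there within the fold limit, at a mean of 8.24 CPM (0.60 ± 0.102). *Cx3cr1* rose most in IL17, to 25.7, 26.1 and 25.5 CPM, and *Lyve1* rose in IL17 (1.49, 1.91 and 1.3 CPM) and Combo (1.3, 1.7 and 1.53) but not in GLP1 (0.35, 0.579 and 0.587).

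The genes that were high in vehicle marrow were lower under treatment, and all were called except *Mertk* in GLP1 (-0.68 ± 0.102, within the fold limit). *Mertk* was at 10, 10.7 and 9.54 CPM in GLP1, 5.31, 4.54 and 6.87 in IL17 and 2.57, 3.07 and 2.64 in Combo, where WT was at 5.92 CPM or above. *Maf* likewise stood at 8.21 ± 0.73, 6.57 ± 1.12 and 3.59 ± 0.331 CPM (SD, n = 3) in GLP1, IL17 and Combo. Both were lower in Combo than in any other group, by -1.20 ± 0.136 (*Mertk*) and -1.42 ± 0.124 (*Maf*) against WT. *Timd4* held 15, 5 and 1 counts in the Combo libraries and changed by -3.28 ± 0.418 against vehicle (adjusted p = 6.13e-09, edgeR's quasi-likelihood test), or -4.45 without Combo replicate 1. Its difference from WT (-1.41 ± 0.497) overlapped between groups and was -2.58 without Combo replicate 1, and by edgeR's quasi-likelihood test the call was lost without WT replicate 3 (adjusted p = 0.0634) or Combo replicate 3 (0.0981).

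Combo marrow was low for most of the 10 genes. Against WT 7 were called, all lower, where 9.93% of all genes were called lower and 14.3% in all, and *Folr2* fell furthest (0.768, 1.03 and 1.23 CPM against 4.45, 4.53 and 4.54; -2.15 ± 0.18). Against GLP1, 7 were called (6 lower and 1 higher, where 13.2% of all genes were called, 8.57% lower and 4.59% higher), and against IL17, 3 were (all lower, where 5.67% were called and 4.63% lower), *Mrc1* (-1.09 ± 0.06), *Mertk* (-1.02 ± 0.138) and *Cx3cr1* (-1.01 ± 0.0696). The 10 genes summed to 71.9 to 72.2 CPM in Combo marrow, 75.9 to 85.1 in vehicle and 158 to 165 in WT. The 14 pan-macrophage genes summed to 11133 to 11241 CPM in Combo, 8459 to 8508 in vehicle and 16845 to 17005 in WT. In Combo that sum was mostly *Lyz2* (6296.9 CPM), *Cybb* (2139.3) and *Itgam* (1715.7), and it mainly follows those genes. *C1qa*, *C1qb* and *C1qc* were at 22.7, 17.3 and 20.4 CPM in Combo and at 67.2, 60 and 55.3 CPM in WT. In whole marrow the sum is therefore not a measure of macrophages alone. Of 14 other genes of resident macrophages tested in BM, 4 rose and 6 fell in vehicle against WT, with the sialic acid receptor gene *Siglec1* at 1.20 and *Cd5l* at -1.53, and in Combo against WT none rose and 10 fell, with *Siglec1* at -1.04 and *Cd5l* at -1.56. Of 7 genes of the macrophages that nurse erythroblasts, 2 rose and 2 fell in vehicle against WT, with *Hmox1* at 1.06 and the iron exporter gene *Slc40a1* at -2.36. In Combo against WT none of these rose and 4 fell. Of all genes in BM, 9.44% rose and 10% fell in vehicle against WT, and 4.4% rose and 9.93% fell in Combo against WT.

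Both tissues were then placed in 1 model to test whether the changes differed between fat and marrow. In WT mice all 10 genes differed between ATMs and BM, where 49.8% of the 13076 genes shared by both tissues did. In ATMs 9 were higher (25.6% of all genes), from *Maf* (1.06) to *Lyve1* (4.90) and *Folr2* (5.80) on the log2 scale, and *Cx3cr1* was lower (-3.66). The vehicle-to-WT change differed between tissues for 7 of the 10 (28.7% of all genes), and the Combo-to-vehicle change for 9 of the 10 (28.1%). *Maf* went opposite ways in both comparisons. In vehicle against WT its change was -2.02 in ATMs and 1.04 in BM (difference -3.05 ± 0.225; adjusted p = 7.33e-12, edgeR's quasi-likelihood test), and in Combo against vehicle it was 2.32 in ATMs and -2.46 in BM (difference 4.82 ± 0.233; 1e-15). *Timd4* likewise fell in ATMs and rose in BM in vehicle against WT (difference -3.65 ± 0.882). The fitted Combo change of *Timd4* was 1.11 in ATMs, where it was not called, and -3.28 in BM, whereas *Mertk* was lower in both (-0.38 in ATMs, within the fold limit, and -2.55 in BM). *Mrc1* and *Lyve1* fell in vehicle against WT in both tissues, and for *Lyve1* the difference between tissues was 0.44 and was not called. *Cx3cr1* fell in BM and was not called in ATMs, and the difference of 2.90 ± 0.505 passed the test (adjusted p = 2.19e-05, edgeR's quasi-likelihood test).

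**Figure D5:**
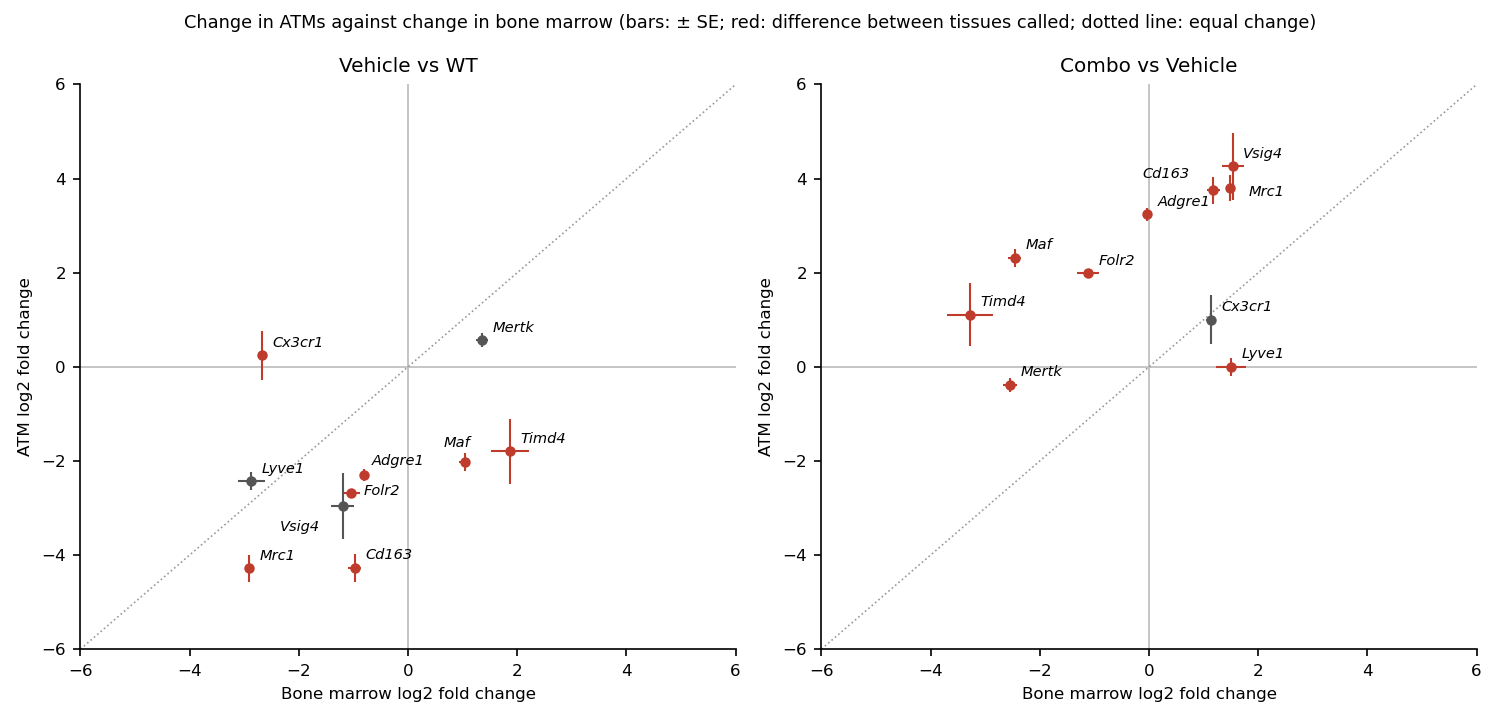
Log2 fold change in BM (horizontal) against ATMs (vertical) for the 10 genes, for vehicle against WT and for Combo against vehicle, with bars of 1 SE and a line of equal change. *Maf* and *Timd4* lie in the quadrant of opposite signs in both panels, and *Mrc1* lies in the quadrant of equal signs in both.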

How the data were processed

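RNA sequencing libraries of sorted F4/80+ visceral adipose cells and of whole bone marrow were analysed, 15 per tissue and 3 per group. The authors aligned reads to the mouse genome (mm10, GRCm38) with STAR 2.7.2a and counted them on genes with featureCounts 2.0.1 without regard to strand. A read on several genes was counted for each, so overlapping genes share reads. They deposited whole-number counts per gene, from which low genes were already left out by a rule not given in the sources used here.

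The counts were fitted per tissue in edgeR 4.0.16 (R 4.3.3) by the quasi-likelihood test with robust spread after TMM scaling, all 15 libraries in 1 fit. The filterByExpr rule left every gene in (0 removed). P-values took the Benjamini-Hochberg adjustment over all genes. A call needed an adjusted p under 0.05 and a log2 fold change beyond 1. Both tissues entered a joint fit over 13076 shared genes for differences between tissues. Common biological variation was 32.5% in ATMs and 3.51% in BM. The script was tested on simulated counts. Alternatives used DESeq2 1.42.0, limma 3.58.1 (voom), other scalings and filters, and each library left out. Depth limits counting error only, and p-values measure the spread between libraries labelled as separate mice. That spread was small in BM. In ATMs the libraries of a group also lay close in pancreatic genes (1139.9 to 1149.2 CPM in Combo) and epididymal genes (10455 to 10696.9 CPM in WT). Whether the spread between libraries holds the full spread between mice was not tested, and the very small p-values carry that limit.

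The 10 genes were read by name and all are described. List genes were named by mean CPM or where a result turned on them, and the genes most alike by Pearson correlation of log2 CPM. The genes and lists were chosen with earlier results of these data known. Gene positions and exon lengths came from a GENCODE annotation of GRCm38, and sequences from RefSeq.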

Additional observations from a re-analysis of the deposited data

Results flagged for a closer look

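In a test of the difference itself, the change of 7 genes in vehicle against WT and of 9 genes in Combo against vehicle differed between ATMs and BM. Values are ATM minus BM on the log2 scale with their SE, from edgeR's quasi-likelihood test in 1 fit of both tissues.

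In vehicle against WT the difference was below 0 for 6 genes. It was -1.49 ± 0.148 for *Adgre1*, -1.37 ± 0.294 for *Mrc1* and -1.65 ± 0.144 for *Folr2*, which fell or were lower in both tissues and more so in ATMs. *Cd163* differed by -3.29 ± 0.304. *Timd4* (-3.65 ± 0.882) and *Maf* (-3.05 ± 0.225) fell in ATMs and rose in BM. *Cx3cr1* differed the other way, by 2.90 ± 0.505, having fallen in BM. The adjusted p ranged from 7.33e-12 (*Maf*) to 0.000976 (*Timd4*). Without vehicle replicate 3 of the ATMs the *Mrc1* difference was -2.07, and without WT replicate 2 of the ATMs the *Cx3cr1* difference was 3.61.

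In Combo against vehicle the receptor genes rose further in ATMs than in BM, by 3.32 ± 0.152 for *Adgre1*, 2.36 ± 0.298 for *Mrc1*, 2.61 ± 0.303 for *Cd163*, 3.14 ± 0.17 for *Folr2* and 2.76 ± 0.759 for *Vsig4*. *Adgre1* was not called in BM, and *Folr2* fell there. *Maf* (4.82 ± 0.233), *Timd4* (4.42 ± 0.932) and *Mertk* (2.21 ± 0.214) had their falls in BM. *Lyve1* was the exception, at -1.46 ± 0.329, having risen in BM and stood at the vehicle level in ATMs. The adjusted p ranged from 3.06e-16 (*Adgre1*) to 0.00314 (*Vsig4*). The *Vsig4* value rests on vehicle replicate 1 of the ATMs, without which it was 7.10. Without vehicle replicate 3 it was 2.17, and that of *Mrc1* was 3.04. Without Combo replicate 1 of the BM the *Timd4* difference was 5.59. The vehicle ATM libraries, whose *Csf1r* was low and neutrophil genes high, enter both sets of differences, and the part of either was not tested.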

How the results depend on the processing

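The number of the 10 genes called was within 1.5 times the main count under RLE scaling (20 of 20 comparisons) and voom (3 of 3), and in 16 of 17 with DESeq2. The fit with no filter on low counts tests nothing further, since the filter removed 0 genes and both fits hold the same genes. The exceptions lay mostly in the ATM comparisons with few calls. Combo against WT, 1 in the report, became 2 with at least 10 counts in every library, 2 with DESeq2, 2 with only the groups compared in the fit, 3 with no limit on the fold and 5 scaled to the pan-macrophage genes. Combo against GLP1, 2 in the report, became 1 with the replicate block, 5 with no fold limit and 1 with the pan-macrophage scaling. Combo against IL17, also 2, became 6 with no fold limit and 4 with the pan-macrophage scaling. GLP1 against WT, 3 in ATMs, became 5 with no fold limit and 7 with the pan-macrophage scaling. With no fold limit 41.1%, 39.8%, 28.6% and 35.5% of all genes passed in these 4 comparisons, and with the pan-macrophage scaling 56.3%, 18.8%, 20% and 46%. In BM with no fold limit, GLP1 against vehicle went from 5 to 8, GLP1 against WT from 4 to 8 and Combo against IL17 from 3 to 8, where 72.8%, 74.7% and 52.5% of all genes passed. Leaving out 1 library at a time gave 1 to 2 genes in ATM Combo against WT, 0 to 2 in ATM Combo against GLP1 and, where the report has 6, 2 to 5 in ATM IL17 against WT. *Mertk* in ATM IL17 against vehicle turned from 0.11 to -1.54 under the pan-macrophage scaling, chosen after seeing the data, and in IL17 against WT *Mrc1* (-1.30), *Folr2* (-1.0) and *Cx3cr1* (-0.16) took the opposite sign. By its construction that scaling moves all genes down where those 14 genes are high. DESeq2 gave no adjusted p for *Vsig4* in the ATM comparisons with vehicle. In the difference between tissues for vehicle against WT, *Vsig4*, not called in the report, was called under voom (-4.07) and the replicate block (-1.91).

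Within each tissue, same-numbered libraries of different groups did not deviate together, with correlations of -0.02 to 0.03 in ATMs and -0.03 to 0.05 in BM. Whether a fat and a marrow library of the same number came from the same mouse was not tested, and the joint fit took them as separate. The block kept the count within 1.5 times in 19 of 20 comparisons, and of the calls it ended only those of *Cx3cr1* in ATM Combo against GLP1 and ATM IL17 against WT. The comparisons of the single drugs with WT were added after seeing the data. In ATMs the wide spread between libraries and low levels limit what can be said of *Timd4*, *Cx3cr1* and *Vsig4*. For *Vsig4* the wide relative spread lay in the vehicle libraries, and the shared fit carried it into the other comparisons. The causes of these dependences were not tested.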
